A study of Mus musculus with 47 samples.

Results

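Messenger RNA of 9 receptors that steer leukocytes towards chemical signals was followed across 12 RNA-seq libraries of mouse macrophages. The genes were Ccr1, Ccr2, Ccr7, Cx3cr1 and Cxcr4 (receptors for chemokines), C5ar1 and C5ar2 (receptors for the complement fragment C5a), and Fpr1 and Fpr2 (formyl peptide receptors). They were selected by gene symbol, with earlier results of these same libraries known, out of 51912 genes in the macrophage tables and 12771 to 23772 genes in the cell line tables. All 9 symbols had a row in each table, so every value here is a description of chosen genes and no p-value is given.

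The study asked what the chromatin reader ZMYND8 does to macrophage gene expression. Bone marrow-derived macrophages (BMDMs) were grown from C57BL/6 mice with M-CSF at 20 ng/ml for 5 days. Wild-type (WT) cells came from Zmynd8 fl/fl littermates, and conditional knockout (cKO) cells from Zmynd8 fl/fl mice that also carried Cre at the Lyz2 locus, so both carried the floxed allele of exons 6 and 7 and the cKO cells lost it only where Lyz2 is active. Cells of each genotype were left non-treated (NT), given LPS at 100 ng/ml for 6 h, or given IL-4 at 20 ng/ml for 6 h, which made 6 libraries. The other 6 libraries were labelled as Raw264.7, an established mouse macrophage line, made by lentiviral CRISPR. A Zmynd8 knockout line was sequenced alone (Zmynd8 KO), with WT Zmynd8 put back, and with a D/E-A mutant put back whose acidic residues were changed to alanine. A p65 knockout line treated with LPS was sequenced alone (p65 KO), with WT p65 put back, and with p65 K122R put back. The titles name LPS for the p65 lines and no treatment for the Zmynd8 lines, while the study's text speaks of LPS for the RNA-seq of WT Zmynd8 and D/E-A, so the treatment of the Zmynd8 lines is uncertain.

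Each condition had 1 library, into which 3 biological replicates of BMDMs had been mixed, so no replicate spread could be measured for any value. Depth, in units of 1000000, was 22.6 to 28.4 estimated counts in the BMDM libraries and 15.1 to 21.0 recovered reads in the libraries labelled Raw264.7. The intervals beside the log2 ratios are 95% exact (Clopper-Pearson) intervals on the reads of 2 libraries, and they cover counting error only. A gene was called higher or lower at a fold of at least 1.2, a fold given in the study's methods, and calls at 2-fold are given beside it.

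Chemoattractant receptors are G protein-coupled receptors of the cell surface. Binding of the ligand releases Gi proteins, raises calcium and turns on PI3-kinase gamma and Rac, and the cell moves up the gradient until kinases and arrestins silence the receptor. Ccr2 brings monocytes out of the bone marrow towards Ccl2, Cx3cr1 marks patrolling monocytes and microglia, Cxcr4 holds cells in the marrow through Cxcl12, Ccr7 leads mature dendritic cells to lymph nodes, and Fpr1, Fpr2 and C5ar1 guide phagocytes to bacteria and damaged tissue. Neutrophils also carry Fpr1, Fpr2, C5ar1 and Cxcr4.

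The labels were checked before the receptors were read. Zmynd8 itself was at 81.5 CPM (counts per 1000000 counts) in cKO against 87.1 in WT NT cells. It was at 86.8 against 79.0 with LPS and at 151 against 128 with IL-4, so the gene total did not show the deletion of 2 exons. Lyz2, the locus that carried Cre, was lower in cKO cells. It was at 7202 CPM in cKO against 10950 in WT NT cells, at 2892 against 6902 with LPS and at 5245 against 8941 with IL-4. In the lines, Zmynd8 was 4.34-fold lower in Zmynd8 KO than with WT Zmynd8, at a deposited value of 116 that, alone in its column, is not a whole number of reads. Rela, which encodes p65, was at 778 in p65 KO against 1574 with WT p65, and at 5963 with K122R. Macrophage markers summed to 4884 to 6170 TPM over the 6 BMDM libraries. Xist was at 740 CPM in WT and 323 in cKO NT cells, at 246 and 429 with LPS and at 1108 and 1057 with IL-4. The part of this spread in the receptors' ratios was not tested. Neutrophil markers summed to 25.1 to 75.8 TPM in the 4 NT and LPS libraries, with Elane at 0 in all 4, and to 1302 TPM in WT and 1842 TPM in cKO IL-4 cells, where 10 of 11 were at 1 TPM or more. The 2 IL-4 libraries also carry other sample numbers in their titles (S62 and S63, against S91 to S94) and come from a table with another set of gene lengths, so IL-4 cannot be told apart from these differences. Among the libraries labelled Raw264.7, the 3 Zmynd8 lines held neutrophil markers at 4482 to 10487 RPM (reads per 1000000 reads), B cell markers at 140.1 to 193 RPM and 7109 to 8467 Xist reads, while the 3 p65 lines held under 1 RPM of the 4 neutrophil markers in their tables and 0 to 3 Xist reads. These 2 sets of libraries stand apart and are described separately, and with these markers the identity of the cells labelled as Zmynd8 lines of Raw264.7 is in doubt.

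The receptors lie on 5 chromosomes (mm10, positions as deposited). Fpr1 (chr17:17876471-17883939, minus strand) and Fpr2 (chr17:17887824-17893952, plus strand) face away from each other across 3884 bases. C5ar2 (chr7:16234585-16244154) and C5ar1 (chr7:16246743-16259540) follow each other on the minus strand, 2588 bases apart. Ccr1 (chr9:123962126-123968692, minus strand), Ccr2 (chr9:124101918-124109140, plus strand) and Cx3cr1 (chr9:120048683-120068296, minus strand) share chromosome 9, Ccr7 lies at chr11:99144199-99155077 and Cxcr4 at chr1:128588199-128592311, both on the minus strand. In the GENCODE annotation, the coding sequence of Ccr1, Ccr2, Cx3cr1, Fpr1 and Fpr2 sits in 1 exon, that of Cxcr4 and C5ar1 in 2 and that of Ccr7 in 3 exons of the principal transcript. Fpr3 overlaps Fpr2 on the same strand and an snRNA gene overlaps C5ar2, so reads of these receptors may be shared and their levels are less certain. The estimated counts of Ccr2 were fractional in all 6 BMDM libraries, so its level is also less certain.

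Promoters of 4 receptors are shown, since they belong to a neighbouring pair that moved together (Fpr1 and Fpr2) and to a pair highest with IL-4 (Cx3cr1 and Cxcr4). Each runs 5′ to 3′ on the gene's strand from 250 bases before to 50 bases after the RefSeq start (GRCm38.p6). RefSeq entries matched 8 of the 9 receptors, all but Ccr7. Capitals mark matches to 6 motifs searched on both strands, namely the NF-kB-like and STAT6-like motifs, the C/EBP-like TTGCNNNAA, the PU.1 box GAGGAA, the TATA box TATAAA and the AP-1 site TGANTCA.
Fpr1 (chr17:17883890-17884189, minus): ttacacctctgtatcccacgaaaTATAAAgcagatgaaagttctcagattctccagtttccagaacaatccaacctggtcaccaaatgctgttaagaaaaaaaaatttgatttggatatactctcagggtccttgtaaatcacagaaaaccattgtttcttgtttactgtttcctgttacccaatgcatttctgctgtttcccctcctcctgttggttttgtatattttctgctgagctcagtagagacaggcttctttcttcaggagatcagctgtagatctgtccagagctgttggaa
Fpr2 (chr17:17887574-17887873, plus): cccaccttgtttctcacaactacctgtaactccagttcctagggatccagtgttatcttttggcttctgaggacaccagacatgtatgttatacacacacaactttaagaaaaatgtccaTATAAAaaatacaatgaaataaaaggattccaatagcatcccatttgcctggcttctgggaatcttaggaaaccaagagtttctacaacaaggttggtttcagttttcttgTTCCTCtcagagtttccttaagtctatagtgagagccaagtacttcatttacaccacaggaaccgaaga
Cx3cr1 (chr9:120068247-120068546, minus): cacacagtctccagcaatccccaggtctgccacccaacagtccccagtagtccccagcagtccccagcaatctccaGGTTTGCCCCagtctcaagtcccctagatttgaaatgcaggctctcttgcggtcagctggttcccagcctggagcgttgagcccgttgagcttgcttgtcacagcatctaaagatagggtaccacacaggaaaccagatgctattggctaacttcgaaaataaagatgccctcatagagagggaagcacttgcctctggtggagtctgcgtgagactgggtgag
Cxcr4 (chr1:128592250-128592549, minus): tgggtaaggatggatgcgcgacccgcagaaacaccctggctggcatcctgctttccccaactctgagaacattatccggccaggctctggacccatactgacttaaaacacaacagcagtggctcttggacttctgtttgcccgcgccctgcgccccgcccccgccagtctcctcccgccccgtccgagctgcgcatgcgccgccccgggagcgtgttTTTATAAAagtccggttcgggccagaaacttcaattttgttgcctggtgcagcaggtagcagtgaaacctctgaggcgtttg
The Cxcr4 window held TATAAA at bases -30 to -25 before the start, overlapping a match on the other strand at -32 to -27. Fpr1 and Fpr2 both held TATAAA far from the start, at -227 to -222 and -130 to -125, and Fpr2 held the PU.1 box at -19 to -14 on the other strand. Cx3cr1 held 1 NF-kB-like match at -174 to -165 on the other strand. Among 32851 promoters of this length, 50.8% held the NF-kB-like letters, 28.3% the PU.1 box, 13.6% the TATA box, 9.56% the C/EBP-like, 7.81% the AP-1 and 6.95% the STAT6-like letters. None of the 4 windows printed held the C/EBP-like, STAT6-like or AP-1 letters.

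Each treatment had its own leading receptor. On the deposited TPM scale, which is per transcript length, C5ar1 was the most abundant of the 9 in NT cells at 523 TPM in WT and 354 TPM in cKO, Fpr2 with LPS at 177 and 223 TPM, and Cxcr4 with IL-4 at 362 and 261 TPM. C5ar1 made up 79.9% of the summed TPM of the 9 receptors in WT NT and 76.8% in cKO NT cells. Fpr1 and Fpr2 together made up 0.791% and 0.667% of that sum in NT cells, 69.2% and 68.7% with LPS, and 1.98% and 8.76% with IL-4. Cxcr4 made up 62.9% of the sum in WT and 48.8% in cKO IL-4 cells. The sum itself was 655 TPM in WT NT, 461 in cKO NT, 341 in WT LPS and 453 in cKO LPS cells. With IL-4 it was 576 in WT and 535 TPM in cKO cells. In cKO against WT NT cells, deposited TPM put 23.4% of the calls over all genes in the higher direction, against 47.1% by library totals. The NT sums of WT and cKO are therefore not read as a difference between genotypes. Ccr1 ranked 2 or 3 of the 9 in all 4 NT and LPS libraries, at 64.7 to 78.8 TPM, and 5 and 6 in WT and cKO IL-4 cells, at 13.7 and 28.6 TPM.

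The formyl peptide receptors, which sense bacterial and mitochondrial peptides, were low at rest. Fpr1 was at 1.22 CPM in WT NT and 0.929 in cKO NT, at 47.7 in WT LPS and 66.7 in cKO LPS, and at 2.04 in WT IL-4 and 12.1 CPM in cKO IL-4 cells. Fpr2 was at 1.76 and 1.19 CPM in WT and cKO NT cells, at 93.8 and 113 with LPS and at 4.30 and 16.3 CPM with IL-4. Both genes had the same order of libraries, with the LPS libraries on top, cKO IL-4 next and the NT libraries last. The order of the NT pair was not resolved by counting, with 32 and 21 counts for Fpr1.

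Of the C5a receptors, C5ar1 was highest at rest, and C5ar2 was highest in cKO IL-4 and cKO NT cells, whose order was not resolved by counting. C5ar1, the signalling receptor, was at 716 CPM in WT NT and 664 in cKO NT, at 41.8 in WT LPS and 60.1 in cKO LPS, and at 97.4 in WT IL-4 and 85.7 CPM in cKO IL-4 cells. C5ar2, which binds C5a without coupling to G proteins, was at 13.6 and 26.3 CPM in WT and cKO NT cells, at 2.17 and 5.76 with LPS and at 9.93 and 28.1 CPM with IL-4. The genotype split C5ar2 in each treatment, with cKO above WT in all 3 pairs, while C5ar1 ordered first by treatment.

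Among the CC chemokine receptors, Ccr1, which binds Ccl3, Ccl5 and related ligands, varied least. Ccr1 was at 141 CPM in WT NT, 143 in cKO NT, 130.3 in WT LPS and 145 in cKO LPS cells, and at 25.0 in WT IL-4 and 53.1 CPM in cKO IL-4 cells. Ccr2, the Ccl2 receptor, was at 6.37 and 15.0 CPM in WT and cKO NT cells, at 3.73 and 11.0 with LPS and at 64.9 and 161 CPM with IL-4. Ccr7, the receptor of the lymph node chemokines Ccl19 and Ccl21, was at 0.0763 and 0.133 CPM in WT and cKO NT cells, from 2 and 3 counts, at 4.90 and 7.04 with LPS and at 0.317 and 0.880 CPM with IL-4. Ccr2 was highest with IL-4 and Ccr7 with LPS, and the cKO library lay above its WT partner in all 3 treatments for Ccr2 and with LPS and IL-4 for Ccr7, whose NT pair was not resolved by counting.

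Cx3cr1 and Cxcr4 shared their order of treatments. Cx3cr1, the fractalkine receptor, was at 2.56 CPM in WT NT, 6.95 in cKO NT, 0.120 in WT LPS and 0.598 in cKO LPS cells, and at 217 in WT IL-4 and 152 CPM in cKO IL-4 cells. Its highest level was 1800.4 times its lowest, the widest range of the 9, although the lowest rested on 3 counts. Cxcr4, the Cxcl12 receptor, was at 38.5 and 27.7 CPM in WT and cKO NT cells, at 5.18 and 4.99 with LPS and at 341 and 252 CPM with IL-4. Over all 9 genes, the interval of the ratio held 0 for 8 of the 45 pairs of libraries next to each other in the order of levels, among them the top 3 libraries of Ccr1, the LPS pair of Cxcr4, the cKO IL-4 and cKO NT pair of C5ar2 and the NT pairs of Ccr7, Fpr1 and Fpr2.

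**Figure D1:**
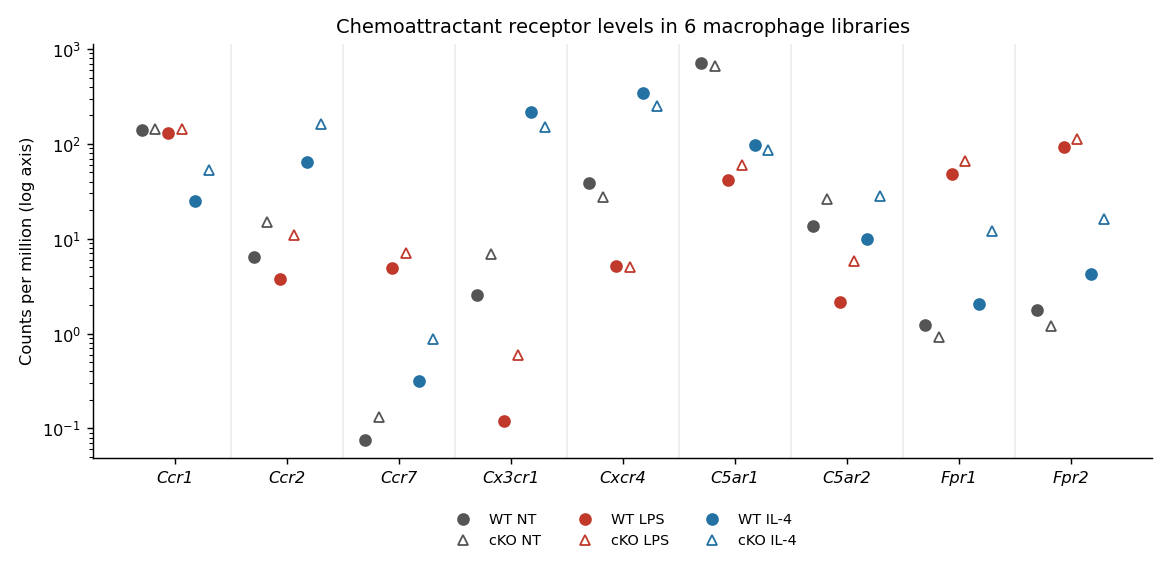
CPM (log axis) of the 9 receptors in the 6 BMDM libraries, with filled circles for WT, open triangles for cKO and colours for the treatment; each point is 1 library and has no error bar. The LPS points of Fpr1 and Fpr2 lie at 47.7 to 113, far above their NT points, while C5ar1 lies at 664 and 716 in NT cells and at 41.8 and 60.1 with LPS.

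LPS against NT asks what a bacterial signal did to the receptors. Fpr1, Fpr2 and Ccr7 were higher with LPS in WT cells and C5ar1, Cx3cr1, Cxcr4, C5ar2 and Ccr2 were lower. Fpr2 had a log2 ratio of 5.73 (5.32 to 6.19), or 52.9-fold higher, and Fpr1 one of 5.27 (4.78 to 5.84). Ccr7, from 2 counts, had a ratio of 5.69 (4.12 to 9.07). C5ar1 had a log2 ratio of -4.10 (-4.19 to -4.01), 17.1-fold lower, and Cx3cr1 of -4.20 (-6.72 to -2.80), with 3 counts left. With a pseudocount of 1 CPM, Ccr7 was at 2.45, Cx3cr1 at -1.67, Fpr1 at 4.45 and Fpr2 at 5.11. Cxcr4 was at -2.89 (-3.17 to -2.63) and C5ar2 at -2.64 (-3.09 to -2.24). Ccr2 was at -0.77 (-1.15 to -0.40), and Ccr1 at -0.12 (-0.19 to -0.05) was within the fold.

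The cKO cells gave the same calls in each direction. Fpr2 was at 6.53 (6.01 to 7.16) and Fpr1 at 6.13 (5.55 to 6.86), above their WT ratios. C5ar1 at -3.46 (-3.54 to -3.39), Cxcr4 at -2.47 (-2.77 to -2.19) and C5ar2 at -2.19 (-2.47 to -1.92) were nearer to 0 than in WT. Cx3cr1 was at -3.49 (-4.44 to -2.75), Ccr7, from 3 counts, at 5.51 (4.16 to 8.02), Ccr2 at -0.44 (-0.68 to -0.20) and Ccr1 at 0.01 (-0.06 to 0.08). With a pseudocount of 1 CPM, Ccr7 was at 2.83, Cx3cr1 at -2.31, Fpr1 at 5.13 and Fpr2 at 5.69. Whether the response differed between genotypes was not tested, since each arm had 1 library.

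Of 12813 genes compared in WT cells, 22.9% were at least 1.2-fold higher, 64.8% at least 1.2-fold lower and 53.3% past 2-fold either way, against 3, 5 and 7 of the 9 receptors. In cKO cells these shares were 26.0%, 61.7% and 55.4% of 12666 genes, against 3, 5 and 7 receptors. The median log2 ratio was -0.70 over all genes and -0.77 over the receptors in WT cells, and -0.65 and -0.44 in cKO cells. Relative to the median of all genes, Ccr1 was higher in both genotypes and Ccr2 was slightly lower in WT and higher in cKO cells. With median-ratio scaling, 46.4% of the calls in WT and 47.5% in cKO cells were in the higher direction, against 26.1% and 29.7% by library totals. That scaling moved all ratios up, in WT cells C5ar1 to -3.49, Cxcr4 to -2.28, C5ar2 to -2.03, Cx3cr1 to -3.59, Fpr1 to 5.88, Fpr2 to 6.33 and Ccr7 to 6.30. It put Ccr1 at 0.49 in WT and 0.59 in cKO cells, past the fold, and Ccr2 at -0.16 and 0.13, within it. The deposited TPM put Ccr1 at 0.28 and Ccr2 at -0.10 in cKO cells. Monocyte markers moved with LPS from 1.83 to 158 TPM in WT and from 3.64 to 176 TPM in cKO cells, and dendritic cell markers from 1.04 to 11.5 and from 1.44 to 16.2 TPM, with Flt3 at 0. Neutrophil markers went from 75.8 to 27.4 and from 74.5 to 25.1 TPM, a direction set by Mmp8. Mmp8 was at 64.0 and 5.69 TPM in WT and 62.4 and 10.9 TPM in cKO cells. S100a8 was higher with LPS, at 7.84 and 17.01 TPM in WT and 9.17 and 11.3 TPM in cKO cells. S100a9 was lower, at 2.81 and 1.96 TPM in WT and 2.52 and 1.23 TPM in cKO cells. The part of these cells in the LPS ratios was not tested.

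Another group of receptors was higher with IL-4 than in NT cells. Cx3cr1 was 84.2-fold higher with IL-4 in WT cells, at a log2 ratio of 6.40 (6.06 to 6.78). Ccr2 was at 3.34 (3.12 to 3.58) and Cxcr4 at 3.15 (3.05 to 3.24). Fpr2 at 1.28 (0.79 to 1.81) and Fpr1 at 0.73 (0.10 to 1.41) were higher from few counts. C5ar1 at -2.88 (-2.94 to -2.82), Ccr1 at -2.50 (-2.62 to -2.38) and C5ar2 at -0.45 (-0.69 to -0.23) were lower. Ccr7, with 2 and 9 counts, did not reach the mean of 10 counts asked of a comparison, and its ratio was 1.81 (-0.22 to 5.30).

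In cKO cells Cx3cr1 had a smaller log2 ratio of IL-4 over NT, at 4.45 (4.22 to 4.69), and the formyl peptide receptors larger ones, Fpr2 at 3.74 (3.21 to 4.39) and Fpr1 at 3.67 (3.06 to 4.41). Ccr2 at 3.43 (3.27 to 3.60) and Cxcr4 at 3.18 (3.06 to 3.30) lay near their WT ratios. Ccr1 was at -1.43 (-1.53 to -1.34) and C5ar1 at -2.95 (-3.02 to -2.89). C5ar2 at 0.10 (-0.06 to 0.25) was within the fold, although the deposited TPM put it at 0.31, and Ccr7, from 3 counts, was at 2.54 (1.00 to 5.11). With a pseudocount of 1 CPM, Ccr7 was at 0.73, under 2-fold, Fpr1 at 2.76 and Fpr2 at 2.98.

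Of 13090 genes compared with IL-4 in WT cells, 43.9% were at least 1.2-fold higher, 24.8% lower and 24.5% past 2-fold, against 5, 3 and 6 of the 8 receptors that passed the filter. In cKO cells the shares were 46.7%, 27.8% and 29.5% of 12966 genes, against 6, 2 and 8 of 9 receptors. The median log2 ratio over all genes was 0.17 in WT and 0.19 in cKO cells, and that of the receptors 1.01 and 3.18. Median-ratio scaling put 50.7% of the calls in each genotype in the higher direction, against 64.0% and 62.7% by library totals, and the deposited TPM put 76.2% there in cKO cells. Neutrophil markers were higher with IL-4, from 75.8 to 1302 TPM in WT and from 74.5 to 1842 TPM in cKO cells. Monocyte markers went from 1.83 to 81.5 and from 3.64 to 183 TPM. Mmp8 alone made up 64.0 and 62.4 TPM of the neutrophil sums in NT cells and went the other way, to 5.56 and 6.54 TPM with IL-4. Of the receptors that neutrophils also carry, Fpr1, Fpr2 and Cxcr4 were higher with IL-4 and C5ar1 was lower. The part of neutrophils and monocytes in the receptors' ratios was not tested. In bulk RNA, more cells of a type and more RNA per cell cannot be told apart.

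**Figure D2:**
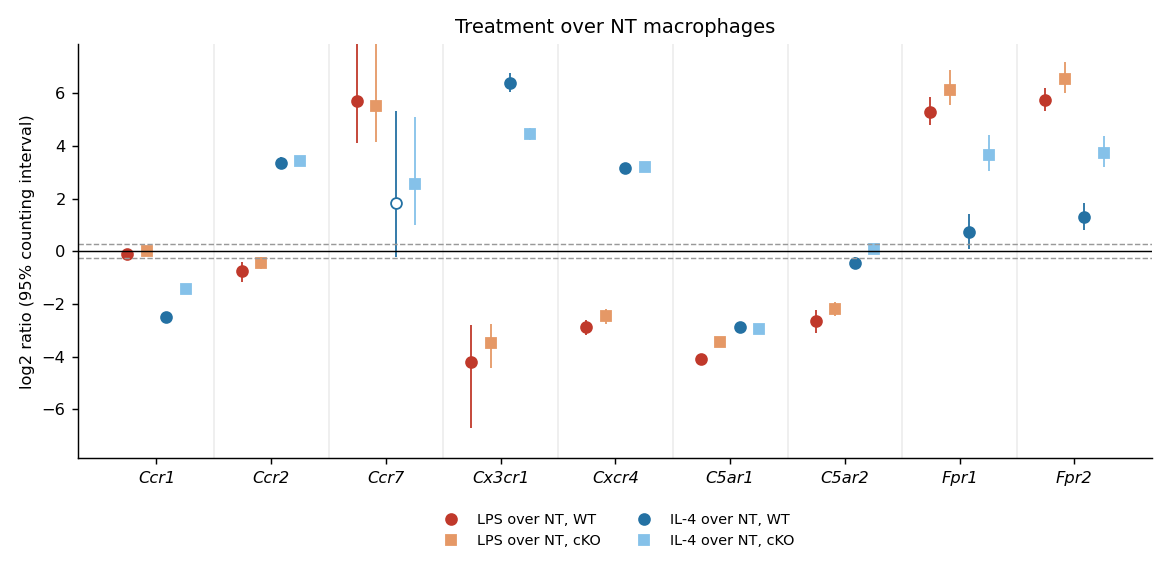
Log2 ratio of LPS or IL-4 over NT libraries for each receptor in WT (circles) and cKO (squares) BMDMs, with vertical lines for 95% counting intervals, clipped at the axis for Ccr7, dashed lines at 1.2-fold and an open symbol for a gene under the filter. Fpr1 and Fpr2 lie at 5.27 to 6.53 with LPS, and Cx3cr1 goes from -4.20 with LPS to 6.40 with IL-4 in WT cells.

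Zmynd8 cKO against WT is the comparison the knockout was made for. In NT cells, Cx3cr1, Ccr2 and C5ar2 were higher in cKO and Cxcr4, Fpr2 and Fpr1 were lower. Cx3cr1 was at a log2 ratio of 1.44 (1.02 to 1.88) with 67 and 157 counts in WT and cKO, and Ccr2 at 1.23 (0.96 to 1.51) with 167 and 338 counts. C5ar2 was at 0.95 (0.76 to 1.14) and Cxcr4 at -0.47 (-0.62 to -0.33). Fpr2 at -0.54 (-1.30 to 0.16) and Fpr1 at -0.38 (-1.26 to 0.44) had intervals that held 0, and a pseudocount of 1 CPM brought Fpr1 to -0.20, within the fold. C5ar1 at -0.11 (-0.14 to -0.08) and Ccr1 at 0.02 (-0.05 to 0.09) were within the fold. By deposited TPM C5ar1 was at -0.57, in a table where that scale put 23.4% of the calls in the higher direction against 47.1% by library totals. Ccr7, with 2 and 3 counts, was at 0.70 (-2.33 to 4.38) and was not compared.

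With LPS, 5 receptors were higher in cKO cells and none was lower. Ccr2 was 2.94-fold higher, at a log2 ratio of 1.56 (1.21 to 1.92), with 93 and 258 counts, and C5ar2 was at 1.40 (0.94 to 1.89) with 54 and 135 counts. C5ar1 was at 0.52 (0.41 to 0.64), Ccr7 at 0.52 (0.18 to 0.87) and Fpr1 at 0.48 (0.37 to 0.59). Fpr2 at 0.26 (0.18 to 0.34) was just short of the fold and passed it by deposited TPM at 0.33. Ccr1 at 0.15 (0.08 to 0.22) and Cxcr4 at -0.05 (-0.43 to 0.32) were within the fold. Cx3cr1, with 3 and 14 counts, was under the filter at 2.14 (0.47 to 4.75).

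With IL-4, 6 receptors were more than 2-fold higher in cKO cells and Cx3cr1 and Cxcr4 were lower. Fpr1 was 5.86-fold higher, at 2.55 (2.15 to 2.99) with 58 and 315 counts, and Fpr2 3.77-fold higher, at 1.92 (1.63 to 2.22). C5ar2 was at 1.498 (1.30 to 1.70), Ccr2 at 1.31 (1.24 to 1.39) and Ccr1 at 1.09 (0.96 to 1.22). Ccr7 was at 1.43 (0.31 to 2.77) from 9 and 23 counts, and a pseudocount of 1 CPM brought it to 0.51, under 2-fold. Cx3cr1, with 6157 and 3969 counts, was at -0.51 (-0.57 to -0.46) and Cxcr4 at -0.44 (-0.48 to -0.39). C5ar1 at -0.18 (-0.27 to -0.10) was within the fold.

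Ccr2 and C5ar2 were higher in cKO cells under all 3 treatments, at 2.34-, 2.94- and 2.49-fold for Ccr2 and 1.93-, 2.64- and 2.82-fold for C5ar2 in the order NT, LPS and IL-4. Cxcr4 was lower in NT and IL-4 cells by a like amount, 1.39- and 1.35-fold. Cx3cr1 changed direction, 2.71-fold higher in NT and 1.43-fold lower in IL-4 cells. Among the markers, neutrophil genes summed to 0.983 times the WT level in cKO NT, 0.918 with LPS and 1.42 with IL-4, monocyte genes to 1.99, 1.12 and 2.25 times, macrophage genes to 1.01, 1.01 and 1.02 times and dendritic cell genes to 1.38, 1.41 and 2.11 times. Fscn1 accounted for the higher dendritic cell sum in NT and for most of the difference in IL-4 cells, at 0.07 and 1.07 TPM in WT and cKO NT and at 4.55 and 11.3 TPM with IL-4. The macrophage sum was led by Cd68, and in NT cells 6 of the 8 macrophage markers were lower in cKO on the TPM scale, among them Fcgr1 at 486 TPM in WT and 247 in cKO and Itgam at 275 and 138 TPM. At rest the monocyte sum was 1.83 and 3.64 TPM, with F13a1 alone above 1 TPM and in cKO cells. The part of these cells in the receptors' ratios was not tested.

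The shares of all genes were as follows. In NT cells 28.1% of 12463 genes were at least 1.2-fold higher in cKO, 31.7% lower and 8.39% past 2-fold, against 3, 3 and 2 of 8 receptors. With LPS the shares were 27.0%, 17.4% and 4.94% of 12386 genes, against 5, 0 and 2 of 8 receptors. With IL-4 they were 20.8%, 16.7% and 6.73% of 13245 genes, against 6, 2 and 6 of 9 receptors. The median absolute log2 ratio was 0.34, 0.23 and 0.18 over all genes and 0.51, 0.50 and 1.31 over the receptors in the order NT, LPS and IL-4. All these comparisons share libraries with the treatment comparisons, so their calls are not independent of them.

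**Figure D3:**
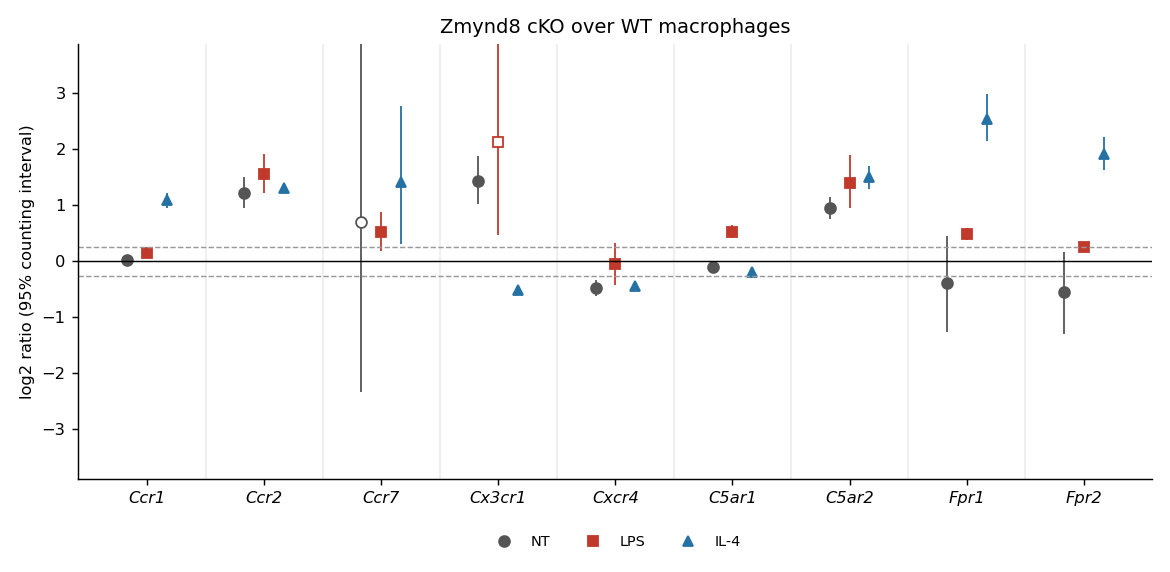
Log2 ratio of cKO over WT BMDMs for each receptor in NT (circles), LPS (squares) and IL-4 (triangles) cells, with 95% counting intervals clipped at the axis for Ccr7 and Cx3cr1, dashed lines at 1.2-fold and open symbols for genes under the filter. The 3 points of Ccr2 lie at 1.23 to 1.56 and those of C5ar2 at 0.95 to 1.498, while Cx3cr1 goes from 1.44 in NT to -0.51 with IL-4.

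The libraries labelled as Zmynd8 lines of Raw264.7 held all 9 receptors at 60 reads or more. In RPM, Fpr1 was at 299.5 with WT Zmynd8, 363 with D/E-A and 396 in Zmynd8 KO, and Fpr2 at 356, 395 and 416. Ccr7 was at 137, 71.6 and 108, C5ar1 at 110.6, 141 and 121.99, and Ccr2 at 66.6, 88.9 and 90.3 RPM. Ccr1 was at 51.6, 61.9 and 83.2, Cxcr4 at 51.4, 37.5 and 39.5, Cx3cr1 at 19.6, 13.9 and 10.8 and C5ar2 at 4.89, 3.35 and 4.09. Fpr1, Fpr2, Ccr1, Ccr2 and C5ar1 were lowest with WT Zmynd8, and Ccr7, Cxcr4, Cx3cr1 and C5ar2 were highest there. Ribosomal RNA from Rn18s-rs5 took 13.7%, 6.50% and 11.1% of the reads of these libraries, which moves the per-million levels.

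D/E-A against WT Zmynd8 asks what the acidic residues of the disordered region change, and no receptor passed 2-fold. On log2 of the deposited value plus 1, Ccr7 was at -0.91 (-1.01 to -0.81), 1.88-fold lower with D/E-A. C5ar2 was at -0.51 (-1.01 to -0.03) from 90 and 60 reads, Cx3cr1 at -0.46 (-0.70 to -0.23) and Cxcr4 at -0.42 (-0.57 to -0.28). Ccr2 at 0.45 (0.34 to 0.56), C5ar1 at 0.38 (0.30 to 0.47), Fpr1 at 0.31 (0.26 to 0.36) and Ccr1 at 0.29 (0.17 to 0.42) were higher. Ccr1 was within the fold at 0.26 by library totals, and Fpr2 at 0.18 (0.13 to 0.23) by the deposited values. Of 12771 genes, 36.7% were at least 1.2-fold higher, 35.9% lower and 18.4% past 2-fold, against 4, 4 and 0 of the 9 receptors.

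Zmynd8 KO against WT Zmynd8 used the same WT library. Ccr1 was at 0.76 (0.65 to 0.88), 1.70-fold higher in Zmynd8 KO, Ccr2 at 0.51 (0.41 to 0.62), Fpr1 at 0.48 (0.43 to 0.53) and Fpr2 at 0.30 (0.25 to 0.34). Cx3cr1 was at -0.78 (-1.03 to -0.54), Cxcr4 at -0.30 (-0.44 to -0.17) and Ccr7 at -0.28 (-0.36 to -0.19). C5ar1 at 0.21 (0.13 to 0.30) and C5ar2 at -0.18 (-0.63 to 0.26) were within the fold, and by library totals Fpr2 joined them at 0.22. Of 21302 genes, 33.8% were at least 1.2-fold higher, 36.5% lower and 25.6% past 2-fold, against 4, 3 and 0 of 9 receptors. No receptor passed 2-fold in either comparison. Neutrophil markers in the 3 libraries summed to 10487 RPM with WT Zmynd8, 4482 with D/E-A and 7047 in Zmynd8 KO. They were lower in both test libraries than with WT Zmynd8. Of the receptors that neutrophils also carry, Fpr1 was called higher in both and Cxcr4 lower in both. C5ar1 was called higher with D/E-A only. Fpr2 was within the fold with D/E-A. Macrophage markers summed to 2891 RPM with WT Zmynd8, 4527 with D/E-A and 3729.8 in Zmynd8 KO, higher in both test libraries. The part of either in these ratios was not tested.

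In the p65 lines 4 of the 9 receptors were close to absent. Fpr1 had 13 reads with WT p65, 1 with K122R and 5 in p65 KO, Fpr2 had 13, 9 and 4, Cxcr4 had 7, 1 and 4, and C5ar2 had 11, 10 and 7 reads. C5ar1 led in RPM at 81.0, 85.1 and 63.1 in the same order. Ccr7 was at 19.0, 3.54 and 14.5, Ccr2 at 12.4, 13.2 and 14.9, Cx3cr1 at 10.6, 33.0 and 8.13 and Ccr1 at 4.21, 9.73 and 11.3 RPM. The K122R library stood apart from the other 2 by its low Ccr7 and its high Cx3cr1.

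**Figure D4:**
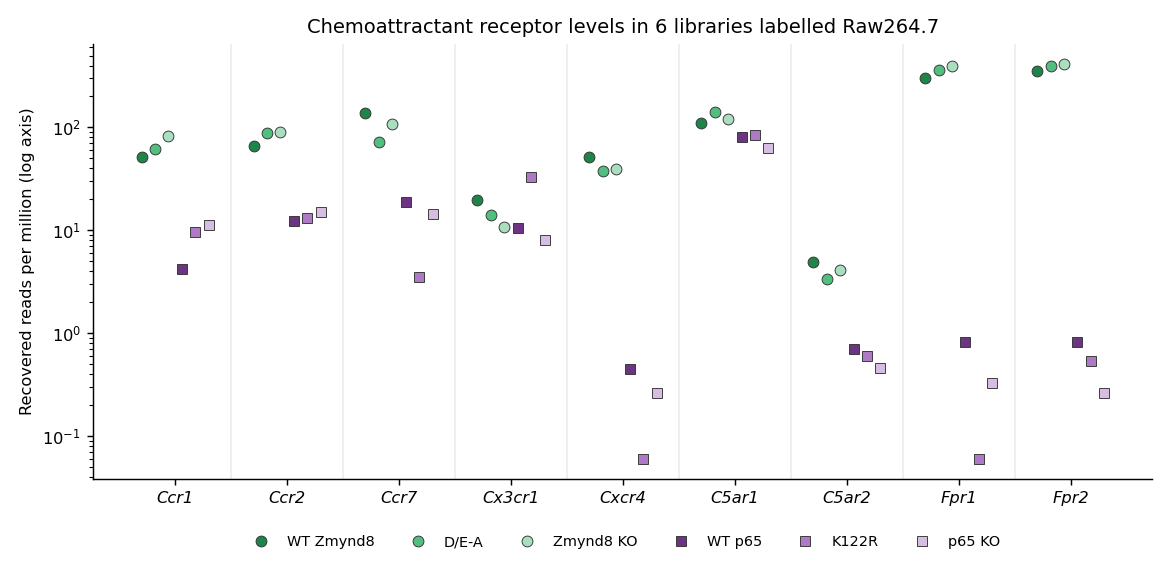
RPM (log axis) of the 9 receptors in the 6 libraries labelled Raw264.7, circles for the Zmynd8 lines and squares for the p65 lines; each point is 1 library and has no error bar. Fpr1 and Fpr2 lie at 299.5 to 416 in the Zmynd8 lines and under 1 in the p65 lines, and the 2 sets overlap for Cx3cr1 alone.

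Levels of the 2 sets of lines overlapped for Cx3cr1 and not for the other 8 receptors. The share of all genes without such overlap was not counted, so this count is not a result about the receptors. The smallest ratio of a Zmynd8 line to a p65 line was 1.30 for C5ar1, 3.76 for Ccr7, 4.46 for Ccr2, 4.56 for Ccr1 and 4.77 for C5ar2 in RPM. For Cxcr4 it was 84.0, for Fpr1 361 and for Fpr2 429. Rn18s-rs5 took 6.50% to 13.7% of the reads in the Zmynd8 lines and 0.179% to 0.509% in the p65 lines, which moves the RPM levels. The sets also differed in Xist, neutrophil and B cell markers and possibly in treatment, which is uncertain for the Zmynd8 lines. These differences cannot be told apart from the lines.

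K122R against WT p65 asks what the loss of 1 acetylation site of p65 changes under LPS, in libraries that also differed in Rela, 3.80-fold higher with K122R, and in Zmynd8, 1.64-fold lower. Cx3cr1 was 3.42-fold higher with K122R, at 1.77 (1.53 to 2.04) with 166 and 549 reads, and Ccr1 2.53-fold higher, at 1.34 (0.93 to 1.79). Ccr7 was 4.80-fold lower, at -2.26 (-2.71 to -1.87) with 298 and 59 reads. Fpr1 at -2.77 (-9.05 to -0.91), Cxcr4 at -1.96 (-8.25 to 0.21) and Fpr2 at -0.43 (-1.88 to 0.86) were called lower from few reads. A pseudocount of 0.1 put Fpr1 at -3.52 and Cxcr4 at -2.64. Ccr2 at 0.24 (-0.05 to 0.52), C5ar1 at 0.22 (0.11 to 0.33) and C5ar2 at -0.08 (-1.48 to 1.29) were within the fold. Of 19670 genes, 30.8% were at least 1.2-fold higher, 32.5% lower and 20.0% past 2-fold, against 2, 4 and 5 of 9 receptors. Scaling by library totals put 37.0% of the calls in the higher direction against 48.6% by the deposited values.

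p65 KO against WT p65 shares the WT p65 library. Ccr1 was 2.66-fold higher in p65 KO, at 1.41 (1.00 to 1.86) with 66 and 171 reads, and Ccr2 was at 0.27 (-0.01 to 0.55). Ccr7 at -0.39 (-0.65 to -0.13), Cx3cr1 at -0.38 (-0.73 to -0.04) and C5ar1 at -0.36 (-0.48 to -0.24) were lower by 1.28- to 1.31-fold. Fpr2 at -1.44 (-3.73 to 0.04), Fpr1 at -1.18 (-3.17 to 0.25), Cxcr4 at -0.64 (-2.98 to 1.22) and C5ar2 at -0.54 (-2.21 to 0.90) had intervals that held 0. Cx3cr1 thus lay above WT p65 with K122R and below it in p65 KO, while Ccr1 lay above it in both and Ccr7 below it in both. Of 19879 genes, 26.3% were at least 1.2-fold higher, 25.7% lower and 15.8% past 2-fold, against 2, 7 and 3 of 9 receptors.

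**Figure D5:**
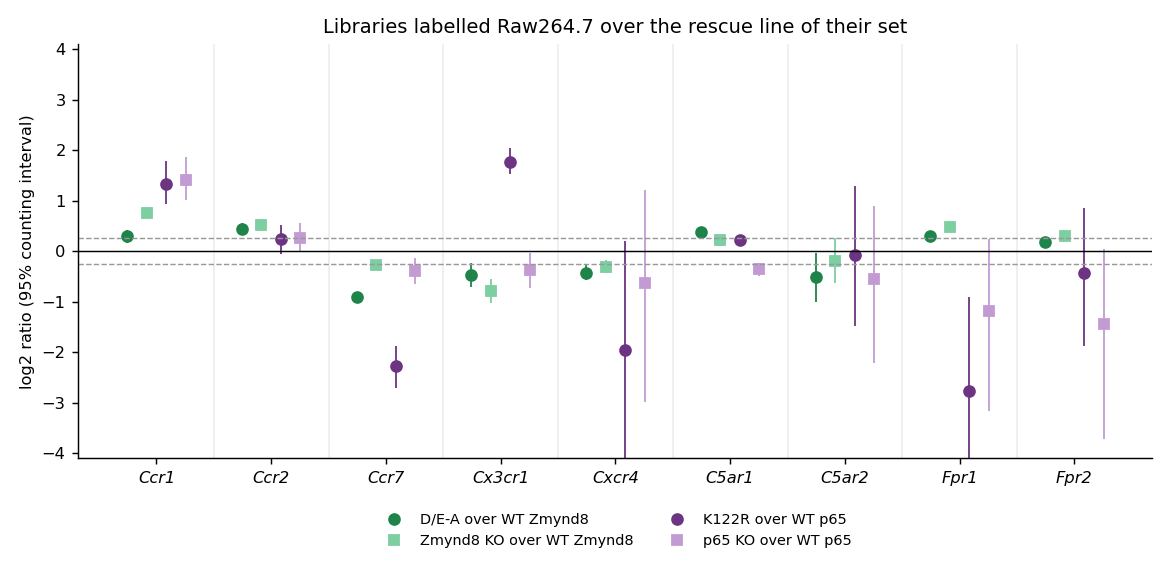
Log2 ratio (deposited value plus 1) of each line over the rescue line of its set, with circles for D/E-A and K122R, squares for Zmynd8 KO and p65 KO, 95% counting intervals clipped at the axis for Cxcr4 and Fpr1, and dashed lines at 1.2-fold. With K122R, Cx3cr1 lies at 1.77 and Ccr7 at -2.26, and Ccr1 is above 0 in all 4 comparisons, from 0.29 to 1.41.

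The receptors' patterns over the 6 BMDM libraries were compared with those of 9933 genes that averaged 100 counts or more, by the root mean square difference of centred log2 CPM. For Fpr1 the nearest were Il6, at 0.24, and Fpr2, at 0.28. For Fpr2 they were Fpr1 and then Il6, at 0.39. Il6 had 2 and 0 counts in WT and cKO NT cells, 330 and 498 with LPS and 6 and 56 with IL-4. C5ar1 lay nearest to Rnf128 at 0.26 and Cgnl1 at 0.26, and C5ar2 to Rgs16 at 0.27 and Tspan32 at 0.31. Ccr1 lay nearest to Ubash3b at 0.17 and 4930455G09Rik at 0.23, Ccr2 to Cyp4f18 at 0.40 and Fcrls at 0.42, Cx3cr1 to Chst7 at 0.33 and Olfml3 at 0.57, and Cxcr4 to Shisa9 at 0.20 and Tgfbr1 at 0.23. Among the receptors themselves the next nearest pairs after Fpr1 and Fpr2 were Ccr7 with Fpr1, at 0.86, Ccr7 with Fpr2, at 1.01, and Cx3cr1 with Cxcr4, at 1.14. C5ar1 and C5ar2 lay 1.27 apart and Ccr1 and Ccr2 2.66 apart, so among the 3 neighbouring pairs Fpr1 and Fpr2 were the closest in pattern. These distances rest on 6 libraries that share depth scaling, and they carry no p-value.

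Other genes of the pathway were taken from 4 lists: 18 other chemokine receptors, 14 other chemoattractant receptors, 18 ligand genes of the 9 receptors and 25 genes of signalling and desensitisation. In cKO against WT NT cells, 1 chemokine receptor was higher and 2 lower of 5 compared, 3 and 3 of 8 other chemoattractant receptors, 6 and 5 of 13 ligands and 4 and 6 of 24 signalling genes, beside 28.1% higher and 31.7% lower of all genes. Past 2-fold with 100 counts were Cmklr1, the chemerin receptor, at -1.20, and Ccl5, a ligand of Ccr1, at -1.26. With LPS the counts were 3 and 1 of 7, 2 and 2 of 9, 4 and 3 of 13, and 9 and 0 of 24, beside 27.0% and 17.4% of all genes. With IL-4 they were 5 and 1 of 8, 1 and 3 of 9, 9 and 1 of 14, and 5 and 2 of 24, beside 20.8% and 16.7%.

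In IL-4-treated cells, 9 of 14 ligand genes and 5 of 8 chemokine receptors outside the 9 were higher in cKO, against 20.8% of all genes. Ccl12 and Ccl2, ligands of Ccr2, were at log2 ratios of 4.54 and 2.44, Ccr3 at 1.53, the non-signalling receptor Ccrl2 at 1.10 and Rgs16, a brake on G protein signalling, at 1.12. The ligand list had a median of 0.88 there, the chemokine receptors one of 0.97 and the signalling genes one of 0.03.

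With LPS against NT in WT cells, 3 chemokine receptors were higher and 2 lower of 6, 4 and 3 of 9 other chemoattractant receptors, 8 and 3 of 13 ligands and 3 and 19 of 24 signalling genes, beside 22.9% higher and 64.8% lower of all genes. Saa3 and Ccl8 led the ligands, at 7.98 and 6.79, and Anxa1, whose product acts on formyl peptide receptors, was 2.82-fold lower. Gpr183 and S1pr1 were lower at -5.55 and -3.95, Ccrl2 higher at 4.53, and the brakes Rgs18 and Rgs2 lower at -4.97 and -3.34. In cKO cells the counts were 4 and 2 of 6, 5 and 4 of 9, 7 and 4 of 13 and 4 and 15 of 24, beside 26.0% and 61.7%. Fpr3, next to Fpr2, had 2 and 0 counts in WT and cKO NT cells and 174 and 315 with LPS.

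With IL-4 against NT in WT cells the counts were 3 higher and 3 lower of 7, 4 and 1 of 8, 3 and 10 of 14 and 7 and 7 of 24, beside 43.9% higher and 24.8% lower of all genes. In cKO cells they were 6 and 2 of 8, 7 and 1 of 9, 5 and 7 of 14 and 8 and 5 of 24, beside 46.7% and 27.8%. Cxcr2, a neutrophil receptor, had a log2 ratio of 7.68 in WT and 4.91 in cKO cells, from 1 and 7 counts, and Camp, a neutrophil granule gene whose peptide binds Fpr2, went from 2 to 282 counts in WT and from 0 to 307 in cKO cells. Both also stand in the neutrophil marker list. Ccl2 was at -4.26 and -2.74 and Rgs1 at -3.61 and -3.46 in WT and cKO cells.

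In D/E-A against WT Zmynd8 the counts were 3 higher and 5 lower of 10, 4 and 2 of 9, 6 and 4 of 13 and 10 and 4 of 23, beside 36.7% higher and 35.9% lower of all genes. Ccl2 at 1.18, Ccl8 at 1.12 and the PI3-kinase gamma subunits Pik3r5 at 1.15 and Pik3cg at 1.01 were higher past 2-fold. Camp was at -1.65, the leukotriene B4 receptor Ltb4r1 at -1.64 and Cxcr6 at -1.65. In Zmynd8 KO they were 5 and 6 of 14, 5 and 2 of 11, 8 and 3 of 16 and 8 and 1 of 23, beside 33.8% and 36.5%. With K122R they were 6 and 4 of 11, 5 and 2 of 9, 7 and 5 of 14 and 11 and 3 of 23, beside 30.8% and 32.5%. In p65 KO they were 4 and 2 of 11, 3 and 1 of 8, 9 and 2 of 14 and 8 and 1 of 23, beside 26.3% and 25.7%. Cxcr3, Anxa1, Rgs1 and Rgs2 were past 2-fold in both p65 comparisons, at 1.34 and 1.21, 1.56 and 1.03, 1.99 and 1.11 and 1.23 and 1.07 for K122R and p65 KO. Saa3 was at 2.70 with K122R and at -2.09 in p65 KO. Those 2 comparisons share the WT p65 library.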

How the data were processed

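RNA-seq was analysed in 6 BMDM libraries and 6 libraries labelled Raw264.7, 1 per condition. The authors' methods give TopHat alignment to mm10 and mixing of 3 biological replicates per BMDM library. The counter is not given in the sources used here. Per the file headers, the BMDM tables hold estimated counts and TPM. The deposited Raw264.7 values are a signal, whole reads divided by 1 size factor per library within each table. Recovered reads were whole for 100% of values, save 1 value of Zmynd8 KO. The tolerance was 0.02 reads and grew with the value for high ones, so at the highest values the check decides nothing. The authors' fold changes and p-values were not used.

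Counts were rounded, 0.5 was added, and log2 ratios were taken over library totals where a gene averaged 10 counts or more. For Raw264.7, log2 of the deposited value plus 1 was compared within a table where the mean value reached 1, and the D/E-A table leaves out low genes. Calls were at 1.2-fold, with 95% Clopper-Pearson intervals (scipy 1.17.1, Python 3.11.15). Tables were normalized separately, and levels across them are RPM over the recovered reads. No replicate exists, so no test was run. Alternatives were 6 for BMDM and 5 for Raw264.7 comparisons, with TMM factors from edgeR 4.0.16. The scripts were tested on simulated data. The receptors and gene lists were chosen with earlier results of these data known. From the lists, the genes named were drawn from the 2 highest and 2 lowest log2 ratios of each list past 2-fold and averaging 100 counts or more, or a deposited value of 10 or more for Raw264.7. The 2 genes nearest in pattern to each receptor were also named. In the tables, 2 columns of per-sample values carried no label of a sample and were not used. The other assays of the series were not analysed here.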

Additional observations from a re-analysis of the deposited data

Results flagged for a closer look

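Cx3cr1 moved in opposite directions in cKO against WT cells under 2 treatments. Its log2 ratio was 1.44 in NT cells, from 67 and 157 counts in WT and cKO, and -0.51 in IL-4-treated cells, from 6157 and 3969 counts. Both counting intervals left out 0, and each condition had 1 library, so the difference between treatments was not tested. The IL-4 libraries carry other sample numbers than the NT libraries and hold neutrophil markers at 1302 and 1842 TPM, against 75.8 and 74.5 TPM in NT cells.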

How the results depend on the processing

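No paired analysis was possible because each condition had 1 library. Under the main filter, and so not recomputed, were Ccr7 in cKO against WT NT and IL-4 against NT WT cells, and Cx3cr1 in cKO against WT LPS cells. All other log2 ratios of the receptors were recomputed under each alternative whose filter they passed, 533 values in all. Of these, 17 changed side of 1.2-fold, 26 moved by over 1.5 times, under a pseudocount of 1 CPM, median-ratio scaling of LPS against NT, deposited TPM or a pseudocount of 0.1, and 8 changed sign, of which 6 were within 1.2-fold before. The other 2, past 1.2-fold before, were Ccr2 in LPS against NT cKO cells, from -0.44 to 0.13 by median-ratio scaling and 0.12 by TMM factors. The number of receptors past 1.2-fold stayed within 1.5 times under every alternative. The number of genes past 1.2-fold did so except without a filter on low values, where it was 12848 for cKO against WT in NT cells, 11563 with LPS and 10454 with IL-4 (7452, 5501 and 4968 with the filter), 17242 and 17147 for LPS against NT in WT and cKO cells (11240 and 11115), and 14629 and 15399 for IL-4 against NT (8996 and 9661), and in p65 KO with a mean value of at least 5, where it was 6514 against 10325. More or fewer genes were compared under these filters. Depth limits the ratios of Ccr7 in NT and IL-4 cells, Cx3cr1 with LPS, and Fpr1, Fpr2, Cxcr4 and C5ar2 in the p65 lines.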
